A study of Homo sapiens with 18 samples.

Results

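TIMP1, TIMP2 and 7 matrix metalloproteinase genes (MMP1, MMP7, MMP9, MMP12, MMP13, MMP14 and MMP25) were followed over 6 harvest times in Raji, a Burkitt lymphoma B-cell line of human origin that carries Epstein-Barr virus. These 9 genes were found by symbol in the gene table of the array platform, out of 18417 genes with a probe set of their own, and each was represented by a single probe set. They were selected on their levels at these 6 times, which were already known. Their differences between times are therefore given as a description, without a test.

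The arrays came from cells harvested at 0, 4, 8, 12, 24 and 48 h, with 3 biological replicates per time and 18 arrays in all. Per the labels, the cells of every array, those of 0 h included, are listed as induced with sodium n-butyrate (3 mM), a histone deacetylase inhibitor, together with a phorbol ester (0.05 µM), an activator of protein kinase C, and as treated with maslinic acid (19 µM), a plant triterpene. The labels do not settle whether the 0 h cells were taken before or after the compounds were added, so a difference from 0 h can be one from untreated cells or one between times of treatment. Arms lacking a compound, and untreated cells harvested later, were not analysed here, so time in culture and the compounds cannot be told apart. Levels are the authors' log2 intensities, on which a difference of 1 is a doubling. The precision that can be stated is limited by the number of arrays.

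Matrix metalloproteinases are zinc-dependent enzymes, made as inactive precursors, that cut collagens, elastin, other matrix proteins and many cytokines and receptors. The tissue inhibitors of metalloproteinases (TIMPs) bind the active enzymes and block them, and TIMP1 also acts on cell survival through surface partners such as CD63. Many of these genes are known to respond to phorbol ester through the transcription factor AP-1, a dimer of FOS and JUN proteins that often acts beside factors of the ETS family.

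Of the 9 genes, 3 stood out by size. TIMP1 was higher from 8 h on and reached its highest mean at 24 h, 47.6-fold above 0 h. The collagenase gene MMP13 overlapped its 0 h level up to 12 h and was then 4.65-fold above 0 h at 24 h and 24.2-fold above it at 48 h, folds that the near-background 0 h level can make too small. MMP7, which encodes the small protease matrilysin, was 1.6-fold above 0 h at 24 h and 3.4-fold above it at 48 h. The time means of the other 6 genes spanned 0.33 to 0.79 on the log2 scale.

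**Figure D1:**
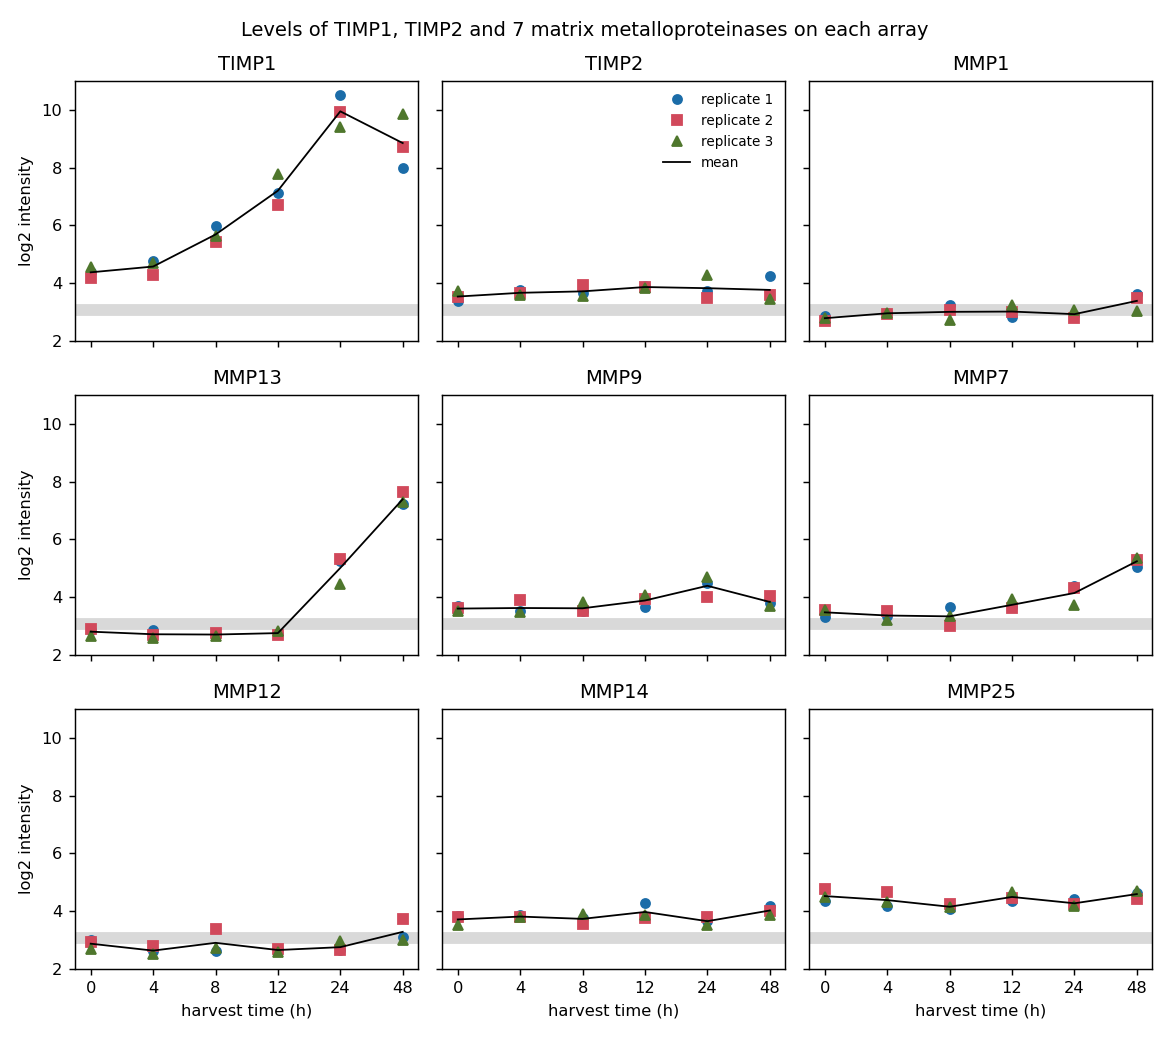
Log2 intensity (vertical axis) by harvest time in h (horizontal axis, evenly spaced) for each of the 9 genes. Symbols are the 3 arrays of each time, the line joins their means, and the grey band spans the lower quartiles of the 18 arrays over all probe sets (2.89 to 3.24). TIMP1, MMP13 and MMP7 leave their starting levels, and the other 6 genes stay within a narrow range.

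TIMP1, a secreted inhibitor of most soluble metalloproteinases, had log2 levels of 4.37, 4.18 and 4.57 at 0 h and of 4.75, 4.27 and 4.68 at 4 h. It stood at 5.97, 5.42 and 5.64 at 8 h and at 7.13, 6.69 and 7.78 at 12 h. At 24 h it was at 10.51, 9.91 and 9.42, and at 48 h at 7.98, 8.72 and 9.86. The arrays of 0 h and 4 h overlapped, and every array from 8 h on lay above every array of 0 h. On the log2 scale the difference from 0 h was 0.19 for the 4 h mean, 1.31 for 8 h, 2.82 for 12 h, 5.57 for 24 h and 4.48 for 48 h.

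Ordered by level, the times for TIMP1 ran 24 h, 48 h, 12 h, 8 h, 4 h and 0 h. Neighbours in this order were separated array by array between 48 h and 12 h (1.65 on the log2 scale), 12 h and 8 h (1.52) and 8 h and 4 h (1.11). They were not separated between 48 h and 24 h. The 48 h mean of 8.85 ± 0.95 was lower by 1.09 than the 24 h mean of 9.95 ± 0.55 (SD, n = 3 each), but replicate 3 of 48 h, at 9.86, lay inside the range of the 24 h arrays. Replicate 3 was the highest of the 48 h arrays and the lowest of the 24 h arrays. The TIMP1 difference from 0 h was between 5.29 and 5.84 at 24 h and between 3.98 and 4.92 at 48 h with any array of the 2 times left out.

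The RefSeq gene table places TIMP1 inside the span of the neuronal gene SYN1, and the RefSeq promoter table gives the genes opposite strands. Whether the array's probes tell the strands apart is not given in the sources used. SYN1, looked up after the levels of TIMP1 were seen and on its own probe set, had log2 means of 3.71 ± 0.19 at 24 h and 3.94 ± 0.09 at 48 h, against 3.89 ± 0.08 at 0 h (SD, n = 3 each). Its 24 h and 48 h means lay close to the 0 h mean. A part of SYN1 transcripts in the signal of the TIMP1 probe set was not tested.

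The RefSeq promoter table (GRCh38.p14) held 3 of the 9 genes, TIMP1, MMP7 and MMP14. The 250 bases before the start of TIMP1 (chrX:47582186-47582435, plus strand) and of MMP7 (chr11:102530748-102530997, minus strand) are shown because these genes had the larger differences over time. Capitals mark matches, on either strand, to the AP-1 motif TGAGTCA, its variant TGAGTAA, the ETS motif AGGAAG and the TATA motif TATAAA.
TIMP1: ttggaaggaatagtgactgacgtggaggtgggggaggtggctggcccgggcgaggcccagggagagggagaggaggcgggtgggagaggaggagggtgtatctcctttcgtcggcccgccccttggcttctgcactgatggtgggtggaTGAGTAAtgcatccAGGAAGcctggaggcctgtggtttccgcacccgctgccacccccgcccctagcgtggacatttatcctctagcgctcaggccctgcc
MMP7: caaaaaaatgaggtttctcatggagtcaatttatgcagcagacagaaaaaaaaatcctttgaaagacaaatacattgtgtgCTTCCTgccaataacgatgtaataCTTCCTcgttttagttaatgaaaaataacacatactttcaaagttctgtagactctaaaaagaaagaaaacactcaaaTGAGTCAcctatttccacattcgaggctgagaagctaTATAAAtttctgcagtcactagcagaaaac

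TIMP1 had the variant TGAGTAA at 101 to 95 bases before its start and an ETS match at 87 to 82 bases before it. MMP7 had TGAGTCA at 67 to 61 bases before its start, 2 ETS matches on the opposite strand (CTTCCT) at 169 to 164 and 145 to 140, and a TATA match at 30 to 25. The matches did not overlap each other, and the 250 bases before the start of MMP14 held none of the 4 motifs. Among 35116 promoters of the same length, 4.2% held TGAGTCA, 2.21% TGAGTAA, 28.7% AGGAAG and 10.7% TATAAA. The motifs were chosen with these sequences in view. A match describes the letters and does not show that a factor binds there.

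TIMP2, the inhibitor that also helps membrane-bound MMP14 to activate a gelatinase at the cell surface, had log2 means, in order of time, of 3.53 ± 0.17, 3.66 ± 0.08, 3.71 ± 0.20, 3.86 ± 0.04, 3.82 ± 0.42 and 3.76 ± 0.41 (SD, n = 3 each). The arrays of every pair of neighbours in the order of its levels overlapped. Its 3 arrays at 12 h (3.89, 3.86 and 3.82) lay above those at 0 h (3.37, 3.51 and 3.71), by 0.33 in the mean. At 24 h the highest value, 4.28, was that of replicate 3, the array on which TIMP1 was lowest for that time.

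MMP13, a collagenase that cuts fibrillar collagen and is found in cartilage and bone, had log2 levels of 2.86, 2.88 and 2.64 at 0 h. It was at 2.86, 2.69 and 2.59 at 4 h, at 2.68, 2.75 and 2.66 at 8 h and at 2.71, 2.68 and 2.84 at 12 h. At 24 h it stood at 5.25, 5.32 and 4.46, and at 48 h at 7.23, 7.64 and 7.30. The arrays of 0 h to 12 h lay below the grey band of lower quartiles in the plot of levels on each array, near background, so that the differences from 0 h can be too small. All 24 h arrays lay above all earlier ones and below all 48 h arrays.

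The log2 difference of MMP13 was 2.22 at 24 h and 4.60 at 48 h against 0 h, and 2.38 at 48 h against 24 h. The times ran 48 h, 24 h, 0 h, 12 h, 4 h and 8 h, and the last 4 were not separated from each other. At 24 h replicate 3 was again the lowest array.

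MMP1, the interstitial collagenase and in many cells a classical phorbol ester target, had log2 levels of 3.61, 3.49 and 3.03 at 48 h against 2.86, 2.69 and 2.80 at 0 h. The 48 h arrays lay above those of 0 h, by 0.59 in the mean, but overlapped those of 24 h and 12 h. Its time means from 0 h to 24 h were between 2.78 and 3.01, near background.

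MMP9, the gelatinase known from B cells and macrophages, had log2 levels of 4.50, 4.00 and 4.68 at 24 h against 3.68, 3.62 and 3.50 at 0 h. The difference in means was 0.79, and the 24 h arrays lay above all those of 0 h. They overlapped the 12 h arrays (3.66, 3.92 and 4.06) and the 48 h arrays (3.79, 4.02 and 3.68). At 48 h the mean difference from 0 h was 0.23, with the lowest 48 h array above the highest 0 h array only in the fourth decimal. MMP9 had its highest mean at 24 h, as TIMP1 did, but its highest 24 h array was replicate 3.

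MMP7, matrilysin, which lacks the hemopexin domain of most other family members, had log2 levels of 3.32, 3.54 and 3.55 at 0 h, 3.34, 3.53 and 3.20 at 4 h and 3.64, 3.01 and 3.35 at 8 h. It was at 3.66, 3.61 and 3.92 at 12 h, at 4.39, 4.32 and 3.72 at 24 h and at 5.04, 5.30 and 5.37 at 48 h. The arrays of 12 h, 24 h and 48 h lay above those of 0 h, by 0.26, 0.67 and 1.77 in the mean. The 48 h arrays also lay above those of 24 h, by 1.09, while 24 h and 12 h overlapped. As for TIMP1 and MMP13, replicate 3 was the lowest of the 24 h arrays.

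**Figure D2:**
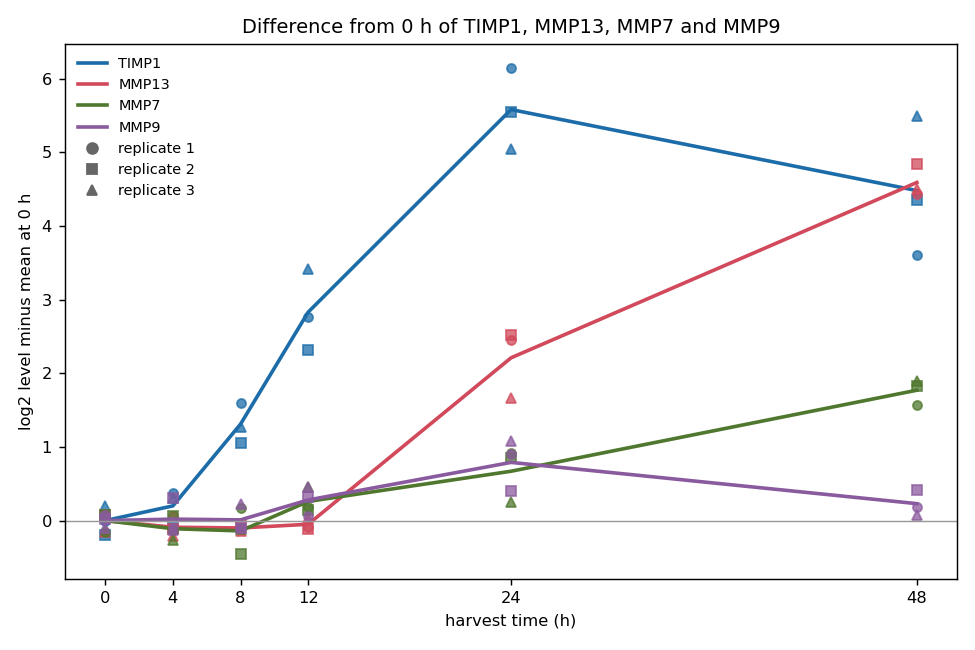
Log2 level minus the gene's own 0 h mean (vertical axis) by harvest time in h (horizontal axis, to scale) for TIMP1, MMP13, MMP7 and MMP9. Lines join the means of 3 arrays and symbols are single arrays. TIMP1 leaves 0 by 8 h and peaks at 24 h (5.57), MMP13 and MMP7 are highest at 48 h (4.60 and 1.77), and MMP9 is highest at 24 h (0.79).

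MMP12, the macrophage elastase, had log2 levels of 3.09, 3.74 and 3.01 at 48 h against 3.01, 2.93 and 2.67 at 0 h. Its lowest 48 h value exceeded the highest 0 h value only in the third decimal, and the mean difference was 0.41. Without replicate 2 of 48 h it was 0.18.

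MMP14, a protease with a membrane-spanning anchor, had log2 levels of 4.17, 3.99 and 3.88 at 48 h against 3.83, 3.79 and 3.53 at 0 h, a mean difference of 0.30 without overlap. Its highest single value, 4.27, was on replicate 1 of 12 h, a time whose arrays overlapped those of 0 h. MMP25, the leukocyte protease leukolysin, which is held by a lipid anchor, was at 4.06, 4.23 and 4.15 at 8 h against 4.34, 4.75 and 4.48 at 0 h, lower by 0.37 in the mean. At 48 h it was at 4.64, 4.42 and 4.70, and these arrays overlapped those of 0 h. For both genes the arrays of neighbouring times in the order of their levels overlapped throughout.

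Counted over the 9 genes, the 4 h arrays of MMP1 lay wholly above those of 0 h, which held for 10.5% of all 18417 genes, and 0 genes of the 9 lay wholly below (7.96% of all genes). At 8 h TIMP1 lay above (8.6% of all genes) and MMP25 below (10.6%). At 12 h TIMP1, TIMP2 and MMP7 lay above (15.6%) and 0 below (12.3%). At 24 h 4 of the 9 lay above, TIMP1, MMP13, MMP9 and MMP7 (13.7%), and 0 below (13.6%). At 48 h 7 of the 9 lay above, all but TIMP2 and MMP25 (15.2%), and 0 below (13.2%). For MMP9 and MMP12 the lowest 48 h array barely exceeded the highest 0 h array. Against 24 h, the 48 h arrays were higher without overlap for MMP13, MMP7, MMP12, MMP14 and MMP25 (7.87% of all genes) and lower for 0 (6.08%). Against 12 h, the 24 h arrays were higher for TIMP1 and MMP13 (7.84%) and lower for 0 (11.8%). The choice of the genes used these levels, so the shares are given side by side only.

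The median difference from 0 h over the 9 genes was 0.02 for 4 h, 0.02 for 8 h, 0.25 for 12 h, 0.29 for 24 h and 0.41 for 48 h, where the median over all genes was between -0.02 and 0.05. Centring each array on its median moved every difference by -0.12 at 12 h and by -0.14 at 48 h, and by less at the other times. Under that centring the sign flipped for MMP9 at 4 h (0.02) and MMP25 at 48 h (0.07), and under quantile normalization for these, for MMP9 at 8 h (0.01) and for MMP14 at 8 h (0.02).

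In the RefSeq gene order, MMP7 and MMP13 are the ends of a run of 9 neighbouring metalloproteinase genes on chromosome 11 (MMP7, MMP20, MMP27, MMP8, MMP10, MMP1, MMP3, MMP12 and MMP13), with no other protein-coding gene between them. The large late differences were at both ends and, inside the run, at MMP10. MMP20, MMP27 and MMP3 differed from 0 h by -0.10 to 0.15 on the log2 scale at 24 h and 48 h, and none of them passed the limma F test over all genes. MMP8, the neutrophil collagenase, differed by -0.75 at 24 h and -0.56 at 48 h (limma adjusted p = 0.18 and 0.319), and its 0 h mean of 2.98 ± 1.08 (SD, n = 3) held 1 high array.

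MMP10, a stromelysin, rose at 48 h, to log2 levels of 7.75, 8.38 and 4.14, against 3.06, 3.26 and 3.04 at 0 h. The difference was 3.64 (SE 0.65), with an adjusted p of 0.000724 by limma over all genes. The 0 h arrays lay in or just above the range of the arrays' lower quartiles (2.89 to 3.24), near background, so the difference can be too small and no fold is given. Replicate 3 of 48 h lay far below the other 2. The SD of the 48 h arrays was 2.29, against 0.12 at 0 h. Without replicate 3 of 48 h the difference was 4.95 (limma adjusted p = 3.39e-10). Without replicate 1 of 48 h it was 3.14 and without replicate 2 of 48 h 2.82 (adjusted p = 0.00587 and 0.00479), the lowest with any array of the 2 times left out. A limma fit to only the 6 arrays of both times gave an adjusted p of 0.03. On the 3 arrays of 48 h MMP13 was even (7.23, 7.64 and 7.30). At 24 h MMP10 was at 3.93, 3.76 and 4.06, above all 0 h arrays by 0.79, with an adjusted p of 0.557.

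**Figure D3:**
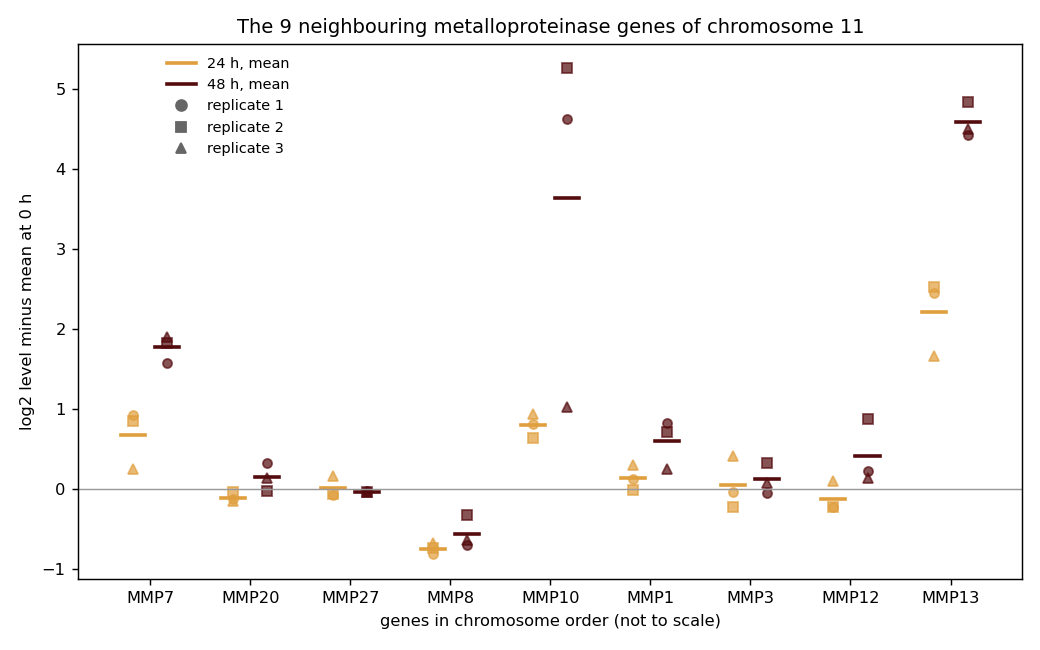
Log2 level minus the gene's own 0 h mean (vertical axis) for the 9 metalloproteinase genes of the chromosome 11 run in chromosome order (horizontal axis, distances not to scale). Symbols are single arrays and bars the means at 24 h and 48 h. All 3 arrays of both times lie above all 0 h arrays for MMP13 (means of 2.22 and 4.60), MMP10 (0.79 and 3.64, with replicate 3 of 48 h far below the other 2) and MMP7 (0.67 and 1.77), and those of 48 h also for MMP1 (0.59) and MMP12 (0.41).

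Related genes were examined in 9 lists of proteases, inhibitors, partners, transcription factors and substrates. These lists were chosen with earlier results of these data known, so the shares are given side by side only. For the same reason the p-values of the listed genes are no independent evidence. The lists named 113 genes, of which 106 were measured and none is among the 9. Of these 106, limma called 2 higher and 0 lower at 4 h than at 0 h, a share of 1.89% beside 1.75% of all 18417 genes (1.16% higher and 0.586% lower). At 8 h it called 6 higher and 1 lower, 6.6% beside 6.68% of all genes (3.5% and 3.18%). At 12 h it called 11 higher and 3 lower, 13.2% beside 8.05% (3.91% and 4.14%). At 24 h 17 were higher and 2 lower, 17.9% beside 12.5% (6.74% and 5.74%), and at 48 h 22 were higher and 2 lower, 22.6% beside 15% (6.92% and 8.11%). The F test over all times called 23 of the 106 (21.7%), beside 16.4% of all genes. The median difference of the 106 was 0.07 at 24 h and 0.16 at 48 h, beside -0.01 and 0.05 over all genes. The 4 h count was 0 by limma without replicate 2 of 0 h, replicate 2 of 4 h or replicate 3 of 4 h, with 6, 7 and 10 genes at an unadjusted p under 0.05, and 1 without replicate 3 of 0 h or replicate 1 of 4 h. The 12 h count, 14 with all arrays, was 9 when replicate 2 of 0 h, or replicate 2 or 3 of 12 h, was left out, and 8 when replicate 1 of 12 h was.

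**Figure D4:**
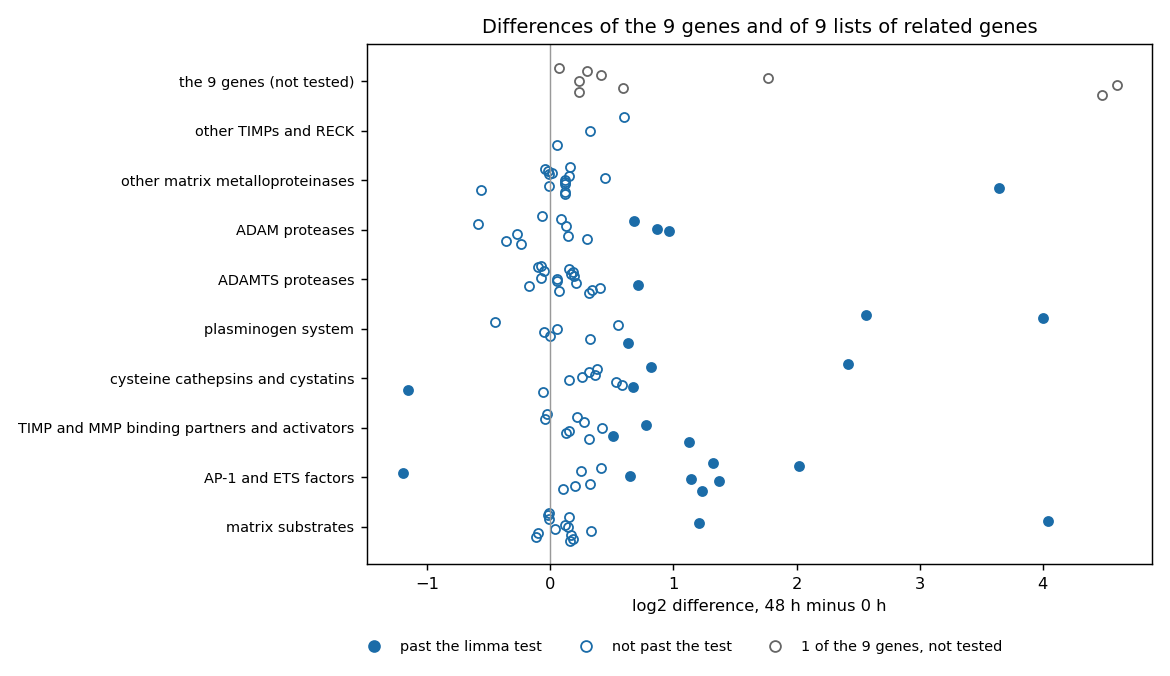
Log2 difference of 48 h minus 0 h (horizontal axis) for the 9 genes (grey, not tested) and the 106 related genes by list (blue; filled symbols passed the limma test at an adjusted p under 0.05). Each symbol is a gene. TIMP1 and MMP13 lie at 4.48 and 4.60, and most proteases of the other lists lie near 0.

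Among the other inhibitors 1 of 3 rose at 24 h by limma and 0 at 48 h, where 1 had an unadjusted p under 0.05. Their median difference was 0.05 at 24 h and 0.32 at 48 h. RECK, a membrane-anchored inhibitor of metalloproteinases, was at 5.87, 5.80 and 5.66 at 24 h against 4.69, 4.43 and 4.63 at 0 h, a difference of 1.19 (SE 0.26, limma adjusted p = 0.00452). At 48 h its difference was 0.60 (adjusted p = 0.144). TIMP3 and TIMP4 differed by -0.12 at 24 h and 0.32 at 48 h (adjusted p = 0.705 and 0.197). MMP10 was the 1 of 15 other metalloproteinases that rose at 48 h, and 0 of 15 passed limma at 4, 8, 12 or 24 h, with 1 or 2 at an unadjusted p under 0.05 at each of these times. Their median difference was 0.05 at 24 h and 0.12 at 48 h. MMP17 differed by 0.43 at 12 h (adjusted p = 0.0799, and 0.0418 under array weights) and MMP20 by -0.43 at 8 h (adjusted p = 0.152). Without replicate 2 of 8 h the MMP20 difference was -0.24.

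Of 12 genes of the ADAM family, several of which encode proteases that shed membrane proteins, 3 rose at 24 h and 3 at 48 h. Their median difference was 0.01 and 0.11. ADAM17, the sheddase of TNF and of growth factor precursors, was at 9.16 ± 0.03 at 48 h against 8.20 ± 0.08 at 0 h (SD, n = 3 each; limma adjusted p = 0.000331). ADAM10 rose by 0.66 at 12 h, ADAM22 by 0.49 at 24 h and ADAM28, the lymphocyte ADAM, by 0.68 at 48 h. ADAM22 lost its call under quantile normalization (adjusted p = 0.158), ADAM28 without replicate 2 of 0 h (adjusted p = 0.144) and ADAM10 without replicate 1 of 0 h (adjusted p = 0.0598). ADAMTS6 was the 1 of 17 ADAMTS proteases that rose, by 0.71 at 48 h (adjusted p = 0.00309), and the median of that list was 0.15. ADAMTS1 differed by 0.41 at 4 h and ADAMTS13 by 0.32 at 12 h (adjusted p = 0.216 and 0.252).

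Of 9 measured genes of the plasminogen system, which activates several metalloproteinase precursors, 2 rose at 24 h and 3 at 48 h, with a median difference of 0.18 and 0.32. ANXA2 and S100A10, which together hold plasminogen at the cell surface, rose by 4.43 at 24 h and 2.56 at 48 h (limma adjusted p = 2.26e-07 and 0.000357). The list that holds both genes was itself chosen with earlier results of these data known. S100A10, like TIMP1, was highest on replicate 3 of 48 h, at 8.36, where replicates 1 and 2 were both at 6.42, and its difference was 1.91 without that array. The third gene at 48 h, chosen after its values were seen, was PLAU (urokinase), higher by 0.63 (adjusted p = 0.0238). Of 12 cathepsins and cystatins, 3 rose and 1 fell at 48 h, with a median difference of 0.37. The cathepsin inhibitor CSTA rose by 2.42 at 48 h, at 7.37, 6.96 and 4.11 against 3.66, 3.61 and 3.92 at 0 h (adjusted p = 0.00307), with replicate 3 low as for MMP10. Without that array the difference was 3.44, and a fit to only the 6 arrays of both times gave an adjusted p of 0.0572. CSTB rose by 0.82 and CTSC, an aminopeptidase, fell by 1.16 at 48 h. CTSH and CTSZ passed the F test but differed by 0.58 at 48 h and -0.59 at 8 h (adjusted p = 0.164 and 0.0878). CTSH was called at 48 h under quantile normalization (0.74, limma adjusted p = 0.0298) and without replicate 1 of 48 h (0.91, 0.016), and CTSZ at 8 h under array weights (-0.57, 0.0242) and without replicate 3 of 8 h (-0.75, 0.0427).

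Of 11 measured partners and activators, 3 rose at 48 h, with a median difference of 0.27. CD63, the surface partner of TIMP1, was at 10.46 ± 0.31 at 48 h against 9.34 ± 0.35 at 0 h (SD, n = 3 each), a difference of 1.13 (limma adjusted p = 0.0113), which became 0.0531 with replicate 3 of 48 h left out and 0.0616 with replicate 1 of 0 h left out. FURIN, a convertase that activates membrane-bound metalloproteinases, differed by 0.78 at 48 h (adjusted p = 0.0372), and LRP1, an endocytic receptor for protease complexes, by 0.52 at 24 h (adjusted p = 0.0463). These 2 calls did not hold with each array centred on its median (adjusted p = 0.0596 and 0.126).

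Of 12 AP-1 and ETS factors, 5 rose and 1 fell at 24 h, and 6 rose and 1 fell at 48 h, with a median difference of 0.45 and 0.53. The ETS factor ETV5 rose by 2.22 at 24 h, and it and FOS were the 2 genes called at 4 h (1.14 and 1.78, limma adjusted p = 0.0143 and 0.0215). Leaving out replicate 2 of 0 h ended both early calls (adjusted p = 0.0797 and 0.139), as did leaving out replicate 2 of 4 h (0.0589 and 0.0686) or replicate 3 of 4 h (0.0512 and 0.0674). That of FOS was also lost without replicate 1 of 4 h (0.0771) and came to 0.05, not called, without replicate 3 of 0 h. FOS rose by 2.19 at 24 h, at 7.26, 6.89 and 5.30 against 4.80, 3.65 and 4.42 at 0 h (limma adjusted p = 0.000848). Without replicate 3 of 24 h, the lowest array for TIMP1 too, the FOS difference was 2.78. JUN rose by 1.37, ELK3 by 1.32 and JUND by 0.65 at 48 h, and ETS1 fell by 1.41 at 12 h. JUN was also low on replicate 3 of 48 h, at 4.34, where replicates 1 and 2 were at 5.42 and 5.54, and its difference was 1.75 without it.

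Of 15 matrix substrates 2 rose, at 8, 12, 24 and 48 h, and the median difference of the list was -0.07 at 24 h and 0.14 at 48 h. SPP1 (osteopontin), a secreted protein that metalloproteinases cut, rose by 4.38 at 24 h, to 7.69 ± 0.42 against 3.30 ± 0.41 at 0 h (SD, n = 3 each; limma adjusted p = 3.4e-07). The laminin chain gene LAMC1 rose by 1.50 at 24 h (adjusted p = 8.69e-06). The collagen, elastin and fibronectin genes of this list did not pass the test at any time.

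Since other cell types make these proteins, marker genes were checked. The 4 measured B-cell markers lay above the mean array median at all times, with a mean log2 level per array of 6.43 to 7.14 at 48 h against 7.60 to 7.61 at 0 h. Of these, CD79A, a chain of the B-cell receptor complex, fell by 1.77 at 48 h (limma adjusted p = 0.0115). The B-cell transcription factor gene PAX5 was lower at 8 h and 12 h, and MS4A1, which encodes CD20, at 12 h, by the same test. The 7 measured monocyte and macrophage markers had a mean level per array of 4.24 to 4.39 at 24 h and of 4.17 to 4.39 at 48 h, against 3.40 to 3.73 at 0 h. Of these 7, CD68, a lysosomal membrane protein, rose by 3.54 and the integrin gene ITGAM by 0.82 at 48 h (limma adjusted p = 4.01e-09 and 0.0141). The other 5 did not pass, and at an unadjusted p under 0.05 there were 3 of the 7 at 24 h and 4 at 48 h, the called ones included. CD14 was at 3.44 at 24 h and 3.53 at 48 h, against 3.46 at 0 h, and LYZ at 3.94 and 3.35, against 3.74. CSF1R was at 4.15 and 4.03, against 3.58, CD163 at 3.15 and 3.35, against 2.83, and MSR1 at 3.03 and 2.92, against 2.75. The array medians lay between 4.03 and 4.25. Of the 7 neutrophil, 8 fibroblast and 6 epithelial markers 0 passed limma at any time, and 1, 3 and 2 of them had an unadjusted p under 0.05 at 1 time or more. Of the 7 T-cell markers CD3D rose by 1.57 at 24 h and TRAT1 fell by 2.22 at 48 h. The part of the monocyte markers in the TIMP1 and metalloproteinase levels was not tested. In such bulk RNA, a change in the number of cells of a type and in the RNA per cell cannot be told apart.

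The genes whose levels over the 18 arrays were most like those of TIMP1 by Pearson correlation were the cytidine deaminase gene APOBEC3B (r = 0.971), UTRN (0.965), GRAMD1C (0.964), BIN2 (0.955), the galectin gene LGALS1 (0.955), ADARB1 (0.951), DNAI1 (0.95) and VRK3 (0.95). The arrays share the course of harvest times, so that any genes that differ in the same late times correlate. APOBEC3B had means of 4.09, 4.37, 5.63, 6.25, 9.11 and 8.63 over the 6 times from 0 h to 48 h. For LGALS1 replicate 3 was the highest of the 48 h arrays (7.80, 8.73 and 9.73), the same order as for TIMP1. For GRAMD1C it was also the highest (6.06, 6.05 and 7.42).

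MMP13 and MMP7 were not among the nearest genes of TIMP1 (r = 0.744 each). MMP13 was most like IFI44L (r = 0.965), an interferon-stimulated gene, PARP14 (0.962) and MOXD1 (0.961). MMP7 was most like MMP13 (0.951), HCAR3 (0.922) and MOXD1 (0.921), and it ranked 8 among the genes most like MMP13. MMP9 correlated with TIMP1 at r = 0.694 and with MMP13 at 0.358, and for TIMP2, MMP1, MMP12, MMP14 and MMP25 the r with TIMP1 was between 0.0302 and 0.322.

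**Figure D5:**
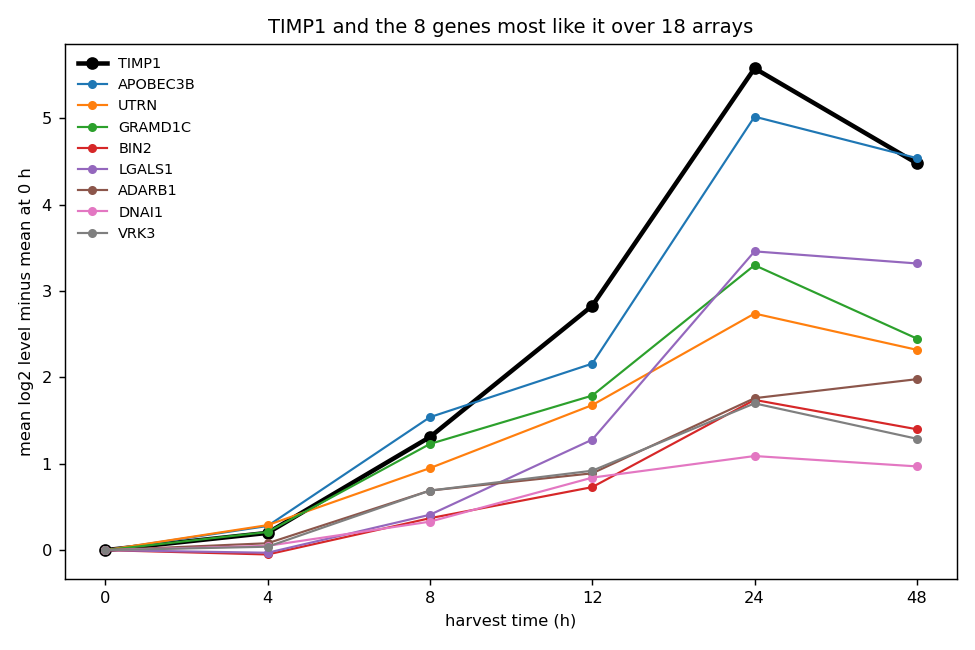
Mean log2 level minus the gene's own 0 h mean (vertical axis) by harvest time in h (horizontal axis, evenly spaced) for TIMP1 (black) and the 8 genes of highest Pearson correlation with it over 18 arrays. Points are means of 3 arrays. TIMP1 and 7 of the 8 genes have their highest mean at 24 h, and ADARB1 has it at 48 h (a log2 level of 5.87).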

How the data were processed

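Raji cell mRNA was measured on 18 arrays, 3 for each of 6 harvest times. The authors deposited log2 intensities, 1 per probe set. The log base was deduced from the values, whose array maxima lay between 12.39 and 12.93. The software, background correction and normalization behind them are not given in the sources used here. Array medians lay between 4.03 and 4.25, and values were used as deposited. Interquartile ranges lay between 2.37 and 3.16. Replicate 2 of 8 h had the lowest of them and also the highest lower quartile, 3.24. Of 33297 probe sets, 19460 had exactly 1 gene in the platform table, 1754 several, and 12083 were not named here. By gene ID 19429 matched RefSeq. Each of 18417 genes was represented by its probe set of highest mean, without a filter.

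With limma 3.58.1 (R 4.3.3), each gene was fitted on the 18 arrays with a mean per harvest time and no other term (12 residual and 5.58 prior degrees of freedom). Benjamini-Hochberg adjustment of each comparison's p-values ran over all genes, and a gene counted as called at an adjusted p under 0.05. Each ± is the SD of 3 arrays, and a difference is the later minus the earlier time. Python 3.11.15, pandas 2.3.3 and matplotlib 3.10.9 made tables and plots. The model was tested on simulated data in which all genes had the same spread at all times. Genes of uneven spread between times, such as MMP10 and CSTA, were not covered by it.

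The 9 genes and the lists were chosen with earlier results of these data known. Of each list up to 6 genes past the F test with the largest difference from 0 h were named, at the time of that difference, and where fewer than 2 passed, up to 2 of smallest p were given as values. For genes like TIMP1 the 8 of highest correlation were named, and for other genes of the 9 whose time means spanned at least 1, the 3 of highest correlation. The alternatives were quantile normalization, centring on array medians, leaving out the dimmest genes, averaging probe sets, array weights, a replicate block, fits of 6 arrays and leaving out each array. The replicate numbers were not treated as pairs, since the labels give no factor beyond harvest time and biological replicate. Of 45 pairs of same-numbered arrays of different times, the correlation of deviations ran from -0.243 to 0.6. Its median was 0.078, against -0.059 for arrays of different numbers, and 15 of 18 arrays correlated best with an array of their own number. A link between same-numbered arrays is therefore not excluded.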

Additional observations from a re-analysis of the deposited data

How the results depend on the processing

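Under quantile normalization and centring on the median, the 45 differences of the 9 genes from 0 h moved by less than the replicate SD in 87 of 90 values. The replicate block and the averaging of probe sets leave these differences as they are by construction. The 3 exceptions came with each array centred on its median (MMP1 at 4 h, MMP13 at 12 h and MMP9 at 48 h, now 0.08, -0.17 and 0.09). For TIMP1, MMP13, MMP7 and MMP9 the differences with an array left out ran from 5.29 to 5.84 (TIMP1, 24 h), 3.98 to 4.92 (TIMP1, 48 h), 2.06 to 2.49 (MMP13, 24 h), 4.47 to 4.68 (MMP13, 48 h), 1.69 to 1.87 (MMP7, 48 h) and 0.65 to 0.99 (MMP9, 24 h). Small differences were less stable: that of MMP12 at 48 h (0.41) ran from 0.18 to 0.55 and that of TIMP2 at 24 h (0.29) from 0.06 to 0.47. The difference of TIMP2 at 48 h (0.23) ran from just below 0 to 0.38. Apart from it, 8 of the 45 changed sign at 2 decimals, the largest of which was 0.13 in size with all arrays. Of the related genes, with an array left out, the 4 h test called 0 to 2, the 8 h test 5 to 9, the 12 h test 8 to 15 (14 with all arrays), the 24 h test 14 to 23, the 48 h test 16 to 24 and the F test 17 to 25. Array weights called 15 at 8 h and 39 by the F test, against 7 and 23. The weights of the 8 h arrays were 5.184, 0.246 and 0.827. With array weights the F test called 5422 of all genes, against 3023. A fit to only the 6 arrays compared called 125, 575, 1788, 2087 and 2107 of all genes from 4 h to 48 h, against 322, 1230, 1483, 2298 and 2768. The cause was not tested. Of the 31 named related genes, 23 had a call, which was lost in 31 of 414 values with an array left out and in 12 of 161 others, most often for LRP1, FURIN, ADAM22 and ADAM28. The other 8 gained a call in 2 of 144 and 3 of 53 values. No direction of these 31 reversed. With the replicate block the related genes called numbered 2, 9, 14, 20 and 24 from 4 h to 48 h and 24 by the F test, and 15 of 18 arrays correlated best with an array of their own number, a hint from the data and not from the design. Levels near the lower quartiles (2.89 to 3.24) can hide changes under background.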

Other observations

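MMP8, the neutrophil collagenase, was at 4.18 on replicate 2 of 0 h and at 2.09 to 2.67 on the other 17 arrays. Of the 7 neutrophil markers 0 passed limma at any time and 1 had an unadjusted p under 0.05. That test compares time means and cannot show what a single array held. RECK was at 4.43 on replicate 2 of 12 h, level with its lowest 0 h array, against 5.62 and 5.60 on the other 2 arrays of that time.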
